A study of Mus musculus with 8 samples.

Results

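The genes described here carry out and police mitosis, from entry into division to the separation of the daughter cells. They form a list of 46 genes of the spindle checkpoint, the mitotic kinases and cyclins, the kinetochore, the spindle, the chromosome axis and cytokinesis. The list is defined by gene function and not by signal on these arrays, although it was drawn up with earlier results of the same arrays known. Each gene was represented by the probe set with the highest mean log2(signal + 5) over the 8 arrays. Of the 46 genes 45 were measured, out of 18194 genes with a probe set of their own on the array, and 42 were bright enough to be tested. Ccnb1, the gene of cyclin B1, has no single-gene probe set in the annotation used and was not analysed here. Plk1, Aurka and Kif20a lay below the filter on dim probe sets, so their values are given without a test.

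The samples were CD8 memory T cells of 4 aged female mice, with a clonal expansion and a polyclonal sample from each animal on an Affymetrix array each. A clonal expansion is a population grown from a single T cell, recognised here by the T cell receptor V beta chain that it carries. Cells that bore CD8 and CD122 (a chain of the receptors for interleukin-2 and interleukin-15, high on memory CD8 cells) and lacked MHC class II were sorted from spleen and lymph nodes. The expansions of mice 1 to 4 stained for the V beta chain of the clone, and their polyclonal partners lacked it. The labels name no treatment and no engineered allele. Mice 1 and 2 were 20 months old C57BL/10SnJ animals, mouse 3 was a 23 months old C57BL/10SnJ animal, and mouse 4 was a 23 months old B10.BR animal. The labels call expansion 1 integrin alpha4-high and expansions 2, 3 and 4 alpha4-low. Each expansion is 1 clone of 1 animal, and a V beta stain also admits other memory cells that use the same chain. The sorts reached a purity of 91, 95, 96 and 98% in the expansions and of 97, 75, 66 and 97% in the polyclonal samples, in the order of the mice.

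Transcripts of most of these genes are scarce in resting cells, build up as a cell passes from S phase to G2, and are destroyed or silenced again after division. The spindle checkpoint holds a cell in metaphase until each kinetochore is attached to microtubules, after which the anaphase promoting complex releases the sister chromatids. Memory CD8 T cells are mostly quiescent and renew themselves by slow division under interleukin-15 and interleukin-7. In a bulk sample, more dividing cells and more transcript per dividing cell cannot be told apart.

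All 6 CD8 T cell markers (Cd8a, Cd8b1, Cd3e, Cd3d, Cd3g and Il2rb) were above background on all 8 arrays, with Cd8a between 13073 and 30815. Background means the 95th percentile of 27 bacterial control probe sets on the array, which was between 33.7 and 61.9, and the median signal was between 46.5 and 75.1. The summed signal of 5 activated T cell markers was 15445 to 21079 in expansions and 9310 to 16317 in polyclonal samples, with Mki67, a gene of the mitosis list, among the 5. The germinal centre B cell list summed to 862 to 2710 and 911 to 2345 (3 of 4 markers measured), B cell markers to 3050 to 4015 and 2136 to 4631 (7 of 8), and plasma cell markers to 2867 to 9260 and 2723 to 5449 (4 of 4). NK cell markers summed to 8811 to 26868 and 17475 to 46944, with the defining gene Ncr1 above background on 0 arrays. Myeloid markers summed to 1578 to 3128 and 1325 to 2328, and granulocyte markers to 567 to 7197 and 693 to 4457, in expansions and polyclonal samples. The erythroid list summed to 1439 to 3225 and 2480 to 3557, with Klf1 above background on 0 arrays. Most of that sum was Tfrc, at 1379 to 3534, which is also among the activated T cell markers. CD4 T cell markers summed to 143 to 181 and 92.1 to 351, and naive T cell markers (2 of 4 measured) to 302 to 846 and 732 to 1668. Sox13, the 1 gamma delta T cell marker of 4 that was measured, read 9.25 to 35.0 and 30.2 to 80.9. These ranges overlap between expansions and polyclonal samples, and their part in the results was not tested. The scanner record of expansion 4 differed from that of the other 7 arrays, so in pair 4 record and clone cannot be told apart.

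The comparison asked whether mitosis genes were transcribed at another level in a clonal expansion than in polyclonal memory cells of the same mouse. With the brightest probe set per gene, their median difference was positive in pairs 1, 2 and 3 and near 0 in pair 4, and the values of pairs 2 and 4 changed sign with the choice of probe set. Over the 45 genes the expansion minus polyclonal difference, on the log2(signal + 5) scale, had a median of 0.86 in pair 1, 0.22 in pair 2, 0.70 in pair 3 and -0.02 in pair 4. The mean of these medians was 0.44 ± 0.41 (SD, n = 4). Higher in the expansion were 38 of 45 genes in pair 1 (84.4%), 30 in pair 2 (66.7%), 34 in pair 3 (75.6%) and 21 in pair 4 (46.7%). Of all genes, 56.2, 43.1, 51.5 and 52.4% were higher in the same pairs. The median over all 18194 genes was 0.12, -0.18, 0.04 and 0.05 in pairs 1 to 4. Relative to these, the mitosis genes lay at 0.74, 0.39, 0.66 and -0.07. Centring each array on its median moved all genes alike, by 0.42 in pair 2 and by -0.11 in pair 1. With quantile normalization the all-gene median of pair 2 moved by 0.23, and the distance of the mitosis genes from it was 0.52. For the 25 genes with more than 1 tested probe set, the brightest set gave medians of 0.72, 0.12, 0.81 and -0.08 and the second brightest 0.81, -0.09, 0.22 and 0.13 in pairs 1 to 4.

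**Figure D1:**
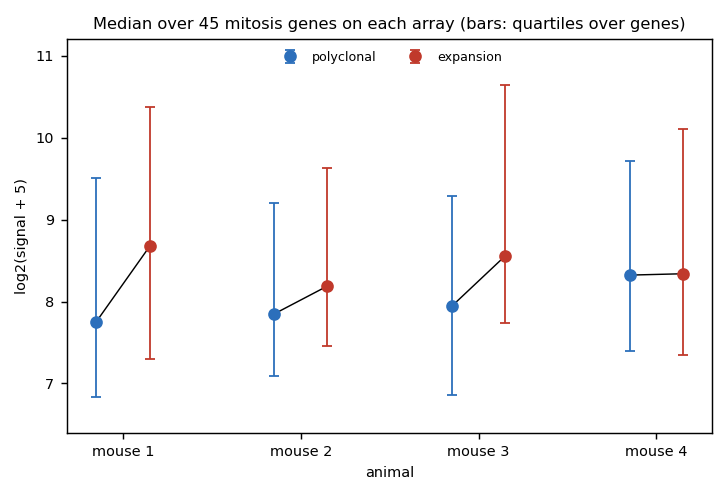
Median log2(signal + 5) over the 45 measured mitosis genes on each of the 8 arrays, with bars for the quartiles over genes and a line joining the samples of each mouse. The expansions lie at 8.67, 8.19, 8.56 and 8.34 and the polyclonal samples at 7.75, 7.85, 7.94 and 8.32, so that of mouse 4 is the highest polyclonal value.

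In pair 4 the polyclonal median stood apart from those of the other mice, while the expansion median lay within the range of the other expansions. The median log2(signal + 5) of the mitosis genes was 8.67, 8.19, 8.56 and 8.34 in expansions 1 to 4. It was 7.75, 7.85 and 7.94 in polyclonal samples 1 to 3, below all 4 expansions, and 8.32 in polyclonal sample 4, above expansion 2. Polyclonal sample 4 had the highest polyclonal value for 21 of the 45 genes, against 6, 9 and 9 genes for polyclonal samples 1 to 3. Expansion 4 had the lowest expansion value for 15 genes, against 9, 12 and 9 for expansions 1 to 3. It had the highest for 10 genes, against 14, 4 and 17. Pair 4 gave the smallest difference of the 4 pairs for 24 genes and the largest for 3. Mouse 4 also differs in strain, which cannot be told apart from the animal here. Expansion 4 has the deviating scanner record and polyclonal sample 4 that of the other arrays. The part of the record in the pair 4 differences was not tested, and it cannot be told apart from the clone.

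In the paired limma fit over all 4 pairs, 0 of 42 tested mitosis genes passed an adjusted p of 0.05, and so did 0 of all 22518 probe sets (0%). The limma adjusted p was 0.9998 for each of the 42. At an unadjusted p under 0.05, 8 of the 42 (19.0%) were higher in expansions and 0 lower, where 0.95% of all probe sets tested were higher at that level. With 1 probe set per gene, as for the 42, 126 of all 10406 genes tested were higher. The 8 mitosis genes were Bub1, Kntc1, Aurkb, Nuf2, Nusap1, Top2a, Ncaph and Mki67. The mean difference was positive for 35 of the 42 (83.3%) and negative for 7, with a median of 0.50, where 49.4% of all genes tested had a positive mean. By sign alone, 11 of the 45 measured genes (24.4%) were higher in 4 of 4 pairs, against 6.03% of all genes, and Smc4 (2.22%) was lower in 4 of 4, against 4.97%. For 5 genes (11.1%), Bub1, Kntc1, Melk, Aurkb and Nuf2, the lowest expansion lay above the highest polyclonal sample, against 1.05% of all genes. On its second tested probe set the Aurkb groups overlap. In pairs 1 to 3, 23 of the 45 were higher in each expansion, against 10.7% of all genes, and 12 of these 23 were lower in pair 4.

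**Figure D2:**
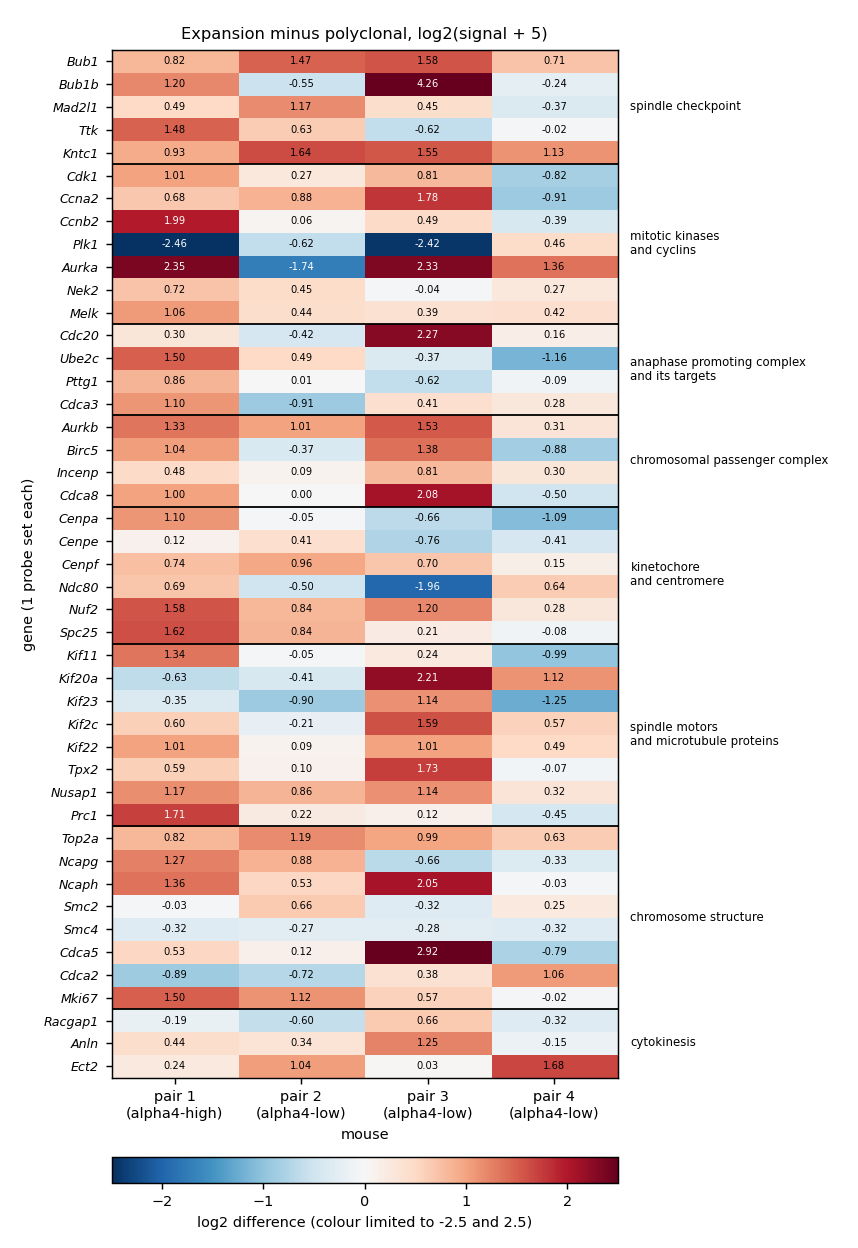
Expansion minus polyclonal difference in log2(signal + 5) for each of the 45 measured mitosis genes (rows, ordered by role) in the pairs of mice 1 to 4 (columns), with the value printed in each cell and the colour limited to 2.5 in either direction. Red fills most of the columns of pairs 1 and 3, while pair 4 has 21 genes higher and 24 lower or equal.

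Of the 8 role groups, on the brightest probe set per gene, the spindle checkpoint genes had the highest median of their mean differences, 1.15. The mean was positive for 5 of 5 genes on these sets, but negative for Bub1b on its second tested set. The means were 1.31 for Kntc1, 1.17 for Bub1b, 1.15 for Bub1, 0.44 for Mad2l1 and 0.37 for Ttk. The rank of the group rests on Bub1b. With its second set (-0.23) the middle mean is that of Mad2l1, below the median of 0.58 of the spindle motors. The group medians on the brightest sets were 0.93, 1.17, 1.55 and -0.02 in pairs 1 to 4. Kntc1 encodes a subunit of the complex that brings checkpoint proteins and dynein to unattached kinetochores. It read 274, 374, 364 and 362 in expansions 1 to 4 and 142, 117, 121 and 163 in the polyclonal samples. The groups do not overlap, and expansion 1 is the lowest expansion. The Kntc1 difference was 1.31 ± 0.34 (SD, n = 4), a 2.48-fold ratio, with a standard error of 0.34 and an unadjusted limma p of 0.00271. Bub1, the kinase that loads the checkpoint onto kinetochores, read 269, 283, 281 and 418 in the expansions against 150, 99.1, 90.5 and 252 in the polyclonal samples. Mouse 4 was high on both sides, and the groups again do not overlap. The Bub1 difference was 1.15 ± 0.44 (SD, n = 4), 2.22-fold, with an unadjusted limma p of 0.00728. Its second tested probe set was also higher in 4 of 4 pairs, with a mean difference of 1.08.

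The other checkpoint genes were less even between mice. Bub1b, which encodes the inhibitor of Cdc20 in the checkpoint complex, had differences of 1.20, -0.55, 4.26 and -0.24. The value of pair 3 rests on a polyclonal signal of 6.14, far below background, against 209 in the expansion, so its size is not exact. The second tested Bub1b probe set, with signals of 29.9 to 93.2, gave 0.93, -1.09, -0.81 and 0.06, a mean of -0.23. Mad2l1, the gene of the checkpoint protein that binds Cdc20, was bright on all arrays, at 9207, 5873, 4600 and 3930 in expansions and 6554, 2601, 3373 and 5067 in polyclonal samples. It was higher in pairs 1 to 3 and lower in pair 4, and the groups overlap. Ttk, the kinase at the top of the checkpoint, had differences of 1.48, 0.63, -0.62 and -0.02, of which those of pairs 1 and 3 each have a sample below background.

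Among the mitotic kinases and cyclins, the median was 1.01, 0.27, 0.49 and 0.27 in pairs 1 to 4. On the brightest probe sets 6 of 7 measured genes had a positive mean. Ccna2 encodes cyclin A2, which drives S phase and entry into mitosis. Its signal was 697, 711, 763 and 443 in the expansions and 434, 385, 218 and 833 in the polyclonal samples. Mouse 4 reversed the order of the other mice, since it held the highest polyclonal and the lowest expansion value. The Ccna2 difference was 0.61 ± 1.12 (SD, n = 4), smaller than its spread. Cdk1, the kinase that cyclins A and B activate, read 428, 235, 307 and 174 in expansions and 211, 194, 173 and 311 in polyclonal samples. Again mouse 4 was opposite to the rest, and the mean of 0.32 ± 0.82 (SD, n = 4) was within the spread. Melk, a protein kinase gene used as a marker of proliferation, read 379, 270, 318 and 340 in expansions and 179, 198, 241 and 253 in polyclonal samples. All 4 expansions lay above all 4 polyclonal samples, and the mean difference was 0.58 ± 0.32 (SD, n = 4), with an unadjusted limma p of 0.108.

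Of the remaining genes of this group, Ccnb2 (cyclin B2) had differences of 1.99, 0.06, 0.49 and -0.39, the largest by far in pair 1. Nek2, a centrosomal kinase gene, had differences of 0.72, 0.45, -0.04 and 0.27. The mitotic kinase genes Plk1 and Aurka were too dim to compare. Plk1, polo-like kinase, read 2.85, 47.7, 12.9 and 58.9 in expansions and 38.3, 75.9, 91.0 and 41.6 in polyclonal samples, above background in 1 expansion and 3 polyclonal samples. Aurka, which matures spindle poles, read 57.7, 19.2, 67.4 and 88.5 against 7.33, 75.8, 9.39 and 31.5, above background in 3 expansions and 1 polyclonal sample. No direction can be read from signals at this level.

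The anaphase promoting complex genes and its substrates had medians of 0.98, -0.20, 0.02 and 0.04, and outside pair 1 single genes went in both directions. Cdc20, the activator that the spindle checkpoint inhibits, read 1766, 1207, 6234 and 2011 in expansions and 1437, 1616, 1289 and 1794 in polyclonal samples. Expansion 3 stands far above the other 7 values, which overlap. Its difference of 2.27 in pair 3 was not seen in the second tested Cdc20 probe set, which gave 0.11 in that pair. Cdca3, which encodes a trigger of mitotic entry, read 364, 170, 508 and 287 against 167, 324, 381 and 237, with a mean of 0.22 ± 0.84 (SD, n = 4) and overlapping groups. Ube2c, the ubiquitin-conjugating enzyme of the complex, had differences of 1.50, 0.49, -0.37 and -1.16, with polyclonal sample 1 and expansion 3 below background. Pttg1, the gene of securin, which restrains separase, had the highest mean signal of the list, at 32558 in expansion 1 and between 12174 and 18675 on the other 7 arrays. Its differences were 0.86, 0.01, -0.62 and -0.09, and the sign of its mean of 0.04 changed under quantile normalization.

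The chromosomal passenger complex corrects faulty microtubule attachments and later directs cytokinesis. Its 4 genes all had a positive mean on the brightest probe sets, with medians of 1.02, 0.05, 1.46 and -0.10 in pairs 1 to 4. Aurkb, the kinase subunit, read 149, 155, 213 and 167 in expansions and 56.2, 74.3, 70.4 and 133 in polyclonal samples. Expansions and polyclonal samples do not overlap on this probe set, although polyclonal sample 4 comes close to expansion 1. The Aurkb difference was 1.05 ± 0.53 (SD, n = 4), 2.07-fold, with an unadjusted limma p of 0.0223. On the second tested Aurkb set the groups overlap, at 81.6 to 172 in expansions and 44.4 to 107 in polyclonal samples. Its differences were 0.55, 0.12, 1.84 and -0.21. Incenp, the scaffold subunit, read 7858, 5917, 13204 and 7850 against 5647, 5547, 7553 and 6363, higher in 4 of 4 pairs by 0.42 ± 0.30 (SD, n = 4). Its second tested probe set gave 0.41, -1.97, 0.18 and 0.13, a mean of -0.31 that is negative through pair 2 alone. Birc5 (survivin) had differences of 1.04, -0.37, 1.38 and -0.88, and Cdca8 (borealin) of 1.002, 0.00, 2.08 and -0.50. Both subunits tether the complex to centromeres. The Birc5 value of pair 3 has no exact size, since its polyclonal signal of 20.7 was below background and its expansion, at 61.9, was at background and the lowest of the 4 expansions.

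The kinetochore and centromere genes were divided, with a positive mean for 3 of 6 on the brightest probe sets and medians of 0.92, 0.63, -0.23 and 0.04. Nuf2 belongs to the Ndc80 complex, the main microtubule anchor of the kinetochore. It read 346, 287, 372 and 330 in expansions and 113, 158, 159 and 270 in polyclonal samples, without overlap. The Nuf2 difference was 0.97 ± 0.55 (SD, n = 4), 1.97-fold, with an unadjusted limma p of 0.0192. Cenpf, a large kinetochore protein gene, read 511, 727, 573 and 741 in expansions and 303, 371, 352 and 666 in polyclonal samples, a mean difference of 0.64 ± 0.34 (SD, n = 4) with an unadjusted limma p of 0.0756. Only polyclonal sample 4 reached into the range of the expansions. Spc25 and Ndc80 encode other subunits of the complex that holds Nuf2. Spc25 had differences of 1.62, 0.84, 0.21 and -0.08, whereas Ndc80 had 0.69, -0.50, -1.96 and 0.64. Cenpa, the centromeric histone, had differences of 1.10, -0.05, -0.66 and -1.09, and Cenpe, a kinetochore motor, of 0.12, 0.41, -0.76 and -0.41, with expansion 3 below background. The second tested Cenpe probe set gave 1.34, 0.44, -0.19 and -0.22, a mean of 0.34, against -0.16 on the brightest.

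The spindle motors and microtubule proteins had medians of 0.80, 0.02, 1.14 and 0.12, and 7 of 8 had a positive mean on the brightest probe sets. Nusap1, which bundles spindle microtubules near chromosomes, read 1043, 577, 821 and 737 in expansions and 461, 317, 371 and 590 in polyclonal samples. It was higher in each pair by 0.87 ± 0.39 (SD, n = 4), 1.83-fold, with an unadjusted limma p of 0.0230, and expansion 2 and polyclonal sample 4 overlap. Kif22, a motor that pushes chromosome arms toward the spindle equator, read 1773, 1401, 3264 and 1769 against 878, 1313, 1620 and 1255. It was higher in 4 of 4 pairs, by 0.65 ± 0.44 (SD, n = 4), with only 0.09 in pair 2. The probe set is of the shared-sequence kind described below. The other Kif22 sets lay below the filter, with means of -0.98 and -1.37, and no direction can be read from signals at that level. The motors and crosslinkers left were mixed between mice. Kif2c, which depolymerises microtubules, had differences of 0.60, -0.21, 1.59 and 0.57. Its second tested probe set gave 0.52, -1.59, -0.02 and 0.62, a mean of -0.12, against 0.64 on the brightest. Tpx2, a spindle assembly factor, had differences of 0.59, 0.10, 1.73 and -0.07. Kif11, the motor that separates the poles, had 1.34, -0.05, 0.24 and -0.99, and Prc1, which bundles the central spindle, 1.71, 0.22, 0.12 and -0.45. Kif23, a motor of the central spindle, was on the brightest sets the one of the 8 with a negative mean, at -0.35, -0.90, 1.14 and -1.25. Kif20a, a further motor of the central spindle, was above background in 2 expansions and 1 polyclonal sample, and its direction cannot be read.

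**Figure D3:**
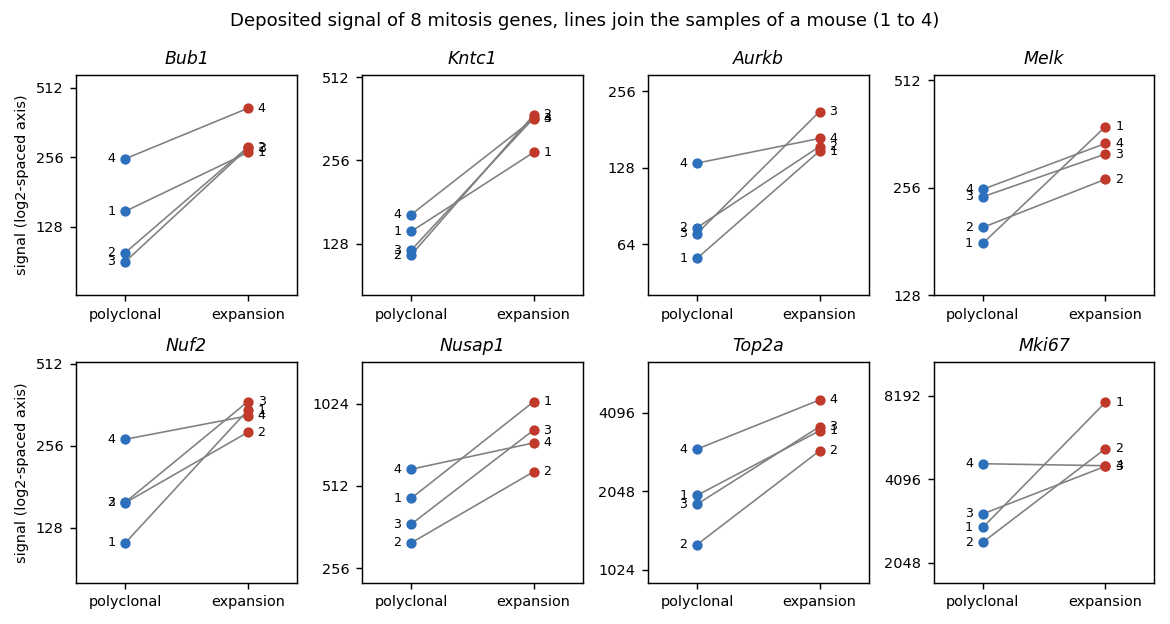
Deposited signal of Bub1, Kntc1, Aurkb, Melk, Nuf2, Nusap1, Top2a and Mki67 in polyclonal samples (left in each panel) and expansions (right), on a log2-spaced axis, with lines joining the samples of mice 1 to 4. All lines climb except that of mouse 4 for Mki67, whose polyclonal sample is already at 4658. The genes shown, except Mki67, are among the 11 higher in 4 of 4 pairs, so their climbing lines follow from the choice of genes. Ccna2 and Cdk1, which fell in mouse 4, are not shown, and 21 of all 45 genes were higher in pair 4.

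The chromosome structure genes had medians of 0.67, 0.59, 0.48 and -0.03, and 6 of 8 had a positive mean on the brightest probe sets. Top2a encodes topoisomerase II alpha, which untangles sister chromatids. It read 3492, 2925, 3620 and 4584 in expansions and 1974, 1278, 1826 and 2969 in polyclonal samples. The value of expansion 2 lies just below that of polyclonal sample 4, and otherwise the groups are apart. The Top2a differences were 0.82, 1.19, 0.99 and 0.63, the most even of the genes higher in expansions, with a mean of 0.91 ± 0.24 (SD, n = 4), 1.87-fold. The unadjusted limma p was 0.0106 and the standard error 0.29. Mki67, the gene of the Ki-67 antigen that coats mitotic chromosomes and marks cycling cells, read 7750, 5277, 4560 and 4582 in expansions and 2746, 2428, 3071 and 4658 in polyclonal samples. Its differences were 1.50 in the alpha4-high pair and 1.12, 0.57 and -0.02 in the alpha4-low pairs. The polyclonal level of mouse 4 was the highest of its group and level with its expansion. The Mki67 mean was 0.79 ± 0.66 (SD, n = 4), 1.73-fold, with an unadjusted limma p of 0.0344.

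Condensin, the ring complex that compacts mitotic chromosomes, was not uniform. Its kleisin subunit gene Ncaph read 604, 379, 1594 and 323 in expansions and 233, 262, 380 and 331 in polyclonal samples. Expansions 1 to 3 were higher than their partners and expansion 4 was level with its own, and the mean was 0.98 ± 0.92 (SD, n = 4) with an unadjusted limma p of 0.0327. The second tested Ncaph probe set gave 1.19, -0.21, 1.001 and 0.33. On its brightest probe set, Smc4, a core ATPase subunit, went the other way in each mouse. It read 13611, 11054, 13057 and 9104 in expansions against 16964, 13301, 15893 and 11368 in polyclonal samples, differences of -0.32, -0.27, -0.28 and -0.32. The mean of -0.30 ± 0.03 (SD, n = 4) had the smallest SD of the 45 genes, but limma, which borrows its variance from probe sets of like brightness, gave an unadjusted p of 0.238. Smc4 stayed lower in 4 of 4 pairs with quantile normalization (-0.42 in pair 2), while centring arrays, which shifts all genes of pair 2 alike, turned that difference to 0.15. Other tested Smc4 probe sets gave -0.60, -0.66, -0.25 and 0.65, and -0.56, -0.63, 0.01 and -0.60, each higher in 1 of 4 pairs. Smc2, the partner ATPase, had differences of -0.03, 0.66, -0.32 and 0.25, and Ncapg, a regulatory subunit, of 1.27, 0.88, -0.66 and -0.33. The second tested Ncapg probe set was higher in 4 of 4 pairs, at 0.90, 0.998, 0.15 and 0.09. Cdca5 (sororin), which protects cohesion until anaphase, had differences of 0.53, 0.12, 2.92 and -0.79. Cdca2, which targets a phosphatase to chromatin, had -0.89, -0.72, 0.38 and 1.06 in its brightest probe set, with a mean of -0.04 whose sign changed when arrays were centred. A dimmer tested Cdca2 probe set was higher in 4 of 4 pairs. Its sizes in pairs 1 and 2 are not exact, since the polyclonal signals of 10.4 and 18.5 were below background, and in pairs 3 and 4 it gave 1.53 and 0.60, the same sign as the brightest set.

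The cytokinesis genes had medians of 0.24, 0.34, 0.66 and -0.15, with a positive mean for 2 of 3. Ect2, the activator of RhoA at the cleavage furrow, read 502, 238, 633 and 1316 in expansions and 425, 113, 622 and 408 in polyclonal samples. It was higher in each pair, but by only 0.03 in pair 3 and by 1.68 in pair 4, where most mitosis genes were not higher. The Ect2 mean was 0.74 ± 0.76 (SD, n = 4). Anln, the furrow scaffold anillin, had differences of 0.44, 0.34, 1.25 and -0.15, and Racgap1, the partner of Ect2 at the central spindle, of -0.19, -0.60, 0.66 and -0.32.

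Part of the size of pair 3 went with the kind of probe set. On this array type, names ending in x_at or s_at mark probe sets whose probes also match other transcripts, and 11 of the 45 mitosis genes (24.4%) were represented by such a set, against 9.75% of all genes. In pair 3 these 11 genes, among them Cdc20, Cdca8 and Bub1b, had a median difference of 1.53, against 0.53 for the 34 genes with gene-specific probe sets. All genes showed an offset of the same sign in that pair, with 0.32 for shared-sequence and 0.01 for gene-specific probe sets. In the other pairs (1, 2 and 4) the mitosis medians were 1.002, 0.09 and 0.16 for shared-sequence and 0.82, 0.38 and -0.05 for gene-specific probe sets. The part of cross-hybridisation in these values was not tested. Of the 25 genes with more than 1 tested probe set, the brightest and the second brightest had mean differences of the same sign in 19 and of opposite sign in 6. These 6 were Bub1b, Ccna2, Cdca2, Cenpe, Incenp and Kif2c. All tested sets shared a sign in 17 of the 25. With x_at and s_at probe sets left out, the medians of pairs 1 to 4 were 0.78, 0.11, 0.40 and 0.02.

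**Figure D4:**
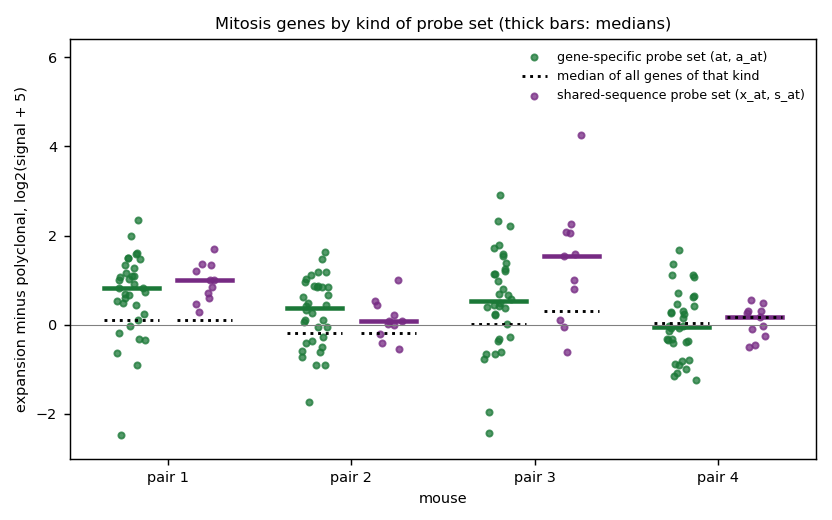
Expansion minus polyclonal difference in log2(signal + 5) of each mitosis gene in pairs 1 to 4, by kind of probe set, with thick bars for the medians over the mitosis genes and dotted bars for the medians over all genes of that kind. In pair 3 the 11 genes on shared-sequence probe sets have a median of 1.53 and the 34 on gene-specific ones 0.53.

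The labels' division by integrin alpha4 raised the question whether the alpha4-low expansions behave like the alpha4-high one. Over the 3 alpha4-low pairs, 0 of 42 tested mitosis genes passed an adjusted p of 0.05 in limma, where 12 of 22518 probe sets did (0.0533%). At an unadjusted p under 0.05, 3 of the 42 (7.14%) were higher, Kntc1, Bub1 and Top2a, and 0 were lower. Of all tested, 1.2% of probe sets and 139 of 10406 genes were higher at that level. Of the 42 genes 29 had a positive mean in these pairs, with a median of 0.41. Over the 45 measured genes this median was 0.42, and 0.15 with the second brightest probe sets. Kntc1 had the smallest adjusted p of the list, with a difference of 1.44 (SE 0.41, limma adjusted p = 0.701), followed in size by Bub1 at 1.26 (SE 0.42, limma adjusted p = 0.855). Top2a had 0.93 (limma adjusted p = 0.955), Aurkb 0.95 (limma adjusted p = 0.966) and Mki67 0.55 (limma adjusted p = 0.989). With sort purity as a covariate, these alpha4-low differences were 0.73 for Bub1, 0.25 for Aurkb and 0.12 for Mki67, and the second Top2a and Aurkb probe sets gave 0.55 and 0.58. For the difference between subclasses, alpha4-low minus alpha4-high, 0 of 42 passed in limma, where 12 of 22518 probe sets did (0.0533%). At an unadjusted p under 0.05, 1 of 42 was lower, where 4.06% of all probe sets were. That gene was Ccnb2, which read 403 in expansion 1 against 97.8 in its partner, with a difference of differences of -1.94 (limma adjusted p = 0.696). Since the alpha4-high side is a single pair, mouse 1 and the subclass cannot be told apart.

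A feature shared by many of these genes and not used in choosing them is the layout of their promoters. In RefSeq promoter windows (GRCm38.p6), which were matched by symbol for 39 of the 46 genes, the 250 bases upstream of the start were searched on both strands. The CHR element, searched as TTTGAA and also in the variant form TTTAAA, is the docking sequence of the DREAM and MuvB complexes, which repress mitotic genes in quiescence and activate them in G2. The CCAAT box, searched as CCAAT, is the site of the trimeric factor NF-Y. CHR letters were found in 20 of 39 promoters (51.3%), against 28.1% of all 27025 genes with a window. A CCAAT box was found in 28 (71.8%), against 37.5%, and 2 or more of them in 18 (46.2%), against 11.5%. Both elements together were found in 17 (43.6%), against 10.1%. The median position upstream of the start was 56.5 bases for CHR letters and 71 for CCAAT boxes. E2F letters, for the E2F factors of the S phase program, searched as TTTCCCGC, TTTGGCGC, TTCCCGCC or TTTCGCGC, were found in 1 of 39 (2.56%), against 3.36%. A match of letters is not evidence of a working site.

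Differences were also set out by the presence of these elements. The median all-pairs difference was 0.54 with and 0.47 without CHR letters, 0.40 with and 0.58 without a CCAAT box, and 0.47 with and 0.52 without both. It was 0.65 with and 0.35 without 2 or more CCAAT boxes. Of the 16 promoters eligible for printing because they hold both elements, 6 are shown, 4 from genes with the largest differences in either direction and 2 from genes with the smallest, so that a like layout can be seen beside unlike values. Each runs 5′ to 3′ on the strand of the gene and ends at the base before the start. Capitals mark the CCAAT boxes and CHR letters found on either strand, and boxes that overlap run together.
Kntc1 (chr5:123749476-123749725, plus strand): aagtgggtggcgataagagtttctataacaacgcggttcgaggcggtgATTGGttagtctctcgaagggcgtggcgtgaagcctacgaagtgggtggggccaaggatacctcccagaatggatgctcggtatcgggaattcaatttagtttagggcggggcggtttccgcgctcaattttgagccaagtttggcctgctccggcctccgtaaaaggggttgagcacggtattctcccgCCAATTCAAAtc
Plk1 (chr7:122159185-122159434, plus strand): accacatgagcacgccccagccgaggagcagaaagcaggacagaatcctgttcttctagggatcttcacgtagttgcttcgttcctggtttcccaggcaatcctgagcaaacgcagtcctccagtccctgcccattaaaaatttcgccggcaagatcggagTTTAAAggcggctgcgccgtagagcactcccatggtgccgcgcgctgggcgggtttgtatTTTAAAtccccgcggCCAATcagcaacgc
Top2a (chr11:99024190-99024439, minus strand): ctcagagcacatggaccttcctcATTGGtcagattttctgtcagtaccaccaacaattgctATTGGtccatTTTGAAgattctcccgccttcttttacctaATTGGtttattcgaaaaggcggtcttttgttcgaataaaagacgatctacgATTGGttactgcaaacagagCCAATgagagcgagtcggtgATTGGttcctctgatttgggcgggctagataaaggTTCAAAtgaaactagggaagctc
Mki67 (chr7:135716380-135716629, minus strand): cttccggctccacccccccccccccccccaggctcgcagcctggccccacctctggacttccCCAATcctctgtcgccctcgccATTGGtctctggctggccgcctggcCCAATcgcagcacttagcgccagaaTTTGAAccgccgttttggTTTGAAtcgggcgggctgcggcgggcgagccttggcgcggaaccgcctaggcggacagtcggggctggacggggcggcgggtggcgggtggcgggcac
Kif11 (chr19:37376132-37376381, plus strand): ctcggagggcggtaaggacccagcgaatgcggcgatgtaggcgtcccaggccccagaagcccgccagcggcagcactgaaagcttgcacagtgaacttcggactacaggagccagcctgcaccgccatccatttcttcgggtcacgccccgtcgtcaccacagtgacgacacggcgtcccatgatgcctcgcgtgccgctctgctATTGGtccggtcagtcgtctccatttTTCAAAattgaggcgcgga
Ube2c (chr2:164769679-164769928, plus strand): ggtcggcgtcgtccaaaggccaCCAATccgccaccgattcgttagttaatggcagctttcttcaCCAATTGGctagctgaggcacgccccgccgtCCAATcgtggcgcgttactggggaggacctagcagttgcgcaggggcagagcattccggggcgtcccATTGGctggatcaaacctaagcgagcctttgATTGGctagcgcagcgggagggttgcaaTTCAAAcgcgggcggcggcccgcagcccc

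Kntc1, with the highest mean difference of the 6 (1.31), has a CHR element 8 and a CCAAT box 12 bases upstream. Top2a, at 0.91, has 6 CCAAT boxes, and so has Ube2c, at 0.12. Mki67, at 0.79, has 3 CCAAT boxes and 2 CHR elements, and Kif11, at 0.14, has 1 of each. Plk1, at -1.26 with signals near background, has 2 CHR elements, at 89 and 29 bases.

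Neighbouring parts of the cell cycle were measured with lists of other genes. Of 44 measured genes of S phase and replication licensing, 33 had a positive mean difference (75.0%, against 50.7% of all genes). The median of the 44 was 0.25, 0.32, 0.72 and -0.10 in pairs 1 to 4, again lowest in pair 4. At an unadjusted p under 0.05 in limma, 6 of 41 tested were higher, against 0.95% of probe sets and 126 of 10406 genes. The adjusted threshold was passed by 0. The smallest p belonged to Cdc6 (1.28) and Dtl (1.35), which act in the licensing of replication origins and its control, and to Ccne2 (0.91), the gene of cyclin E2. Of 83 other mitosis genes, 51 had a positive mean (61.4%, against 50.7% of all genes), with medians of 0.29, 0.16, 0.23 and 0.05. In 4 of 4 pairs 18 were higher (21.7%, against 6.03% of all genes). Of the 69 tested, 5 were higher at an unadjusted p under 0.05 in limma, against 0.95% of probe sets and 126 of 10406 genes. Hmmr (1.05), a spindle assembly factor, Kif18b (1.46), a motor, and Cenpn (1.07), a centromere protein, had the smallest p. Kif18b was below background in polyclonal samples 1 and 2, so its size is not exact. Hmmr read 898, 846, 1033 and 884 in expansions and 381, 395, 344 and 714 in polyclonal samples. All expansions lay above all polyclonal samples, as for 1.05% of all genes. Polyclonal sample 4 was the highest of its group, as for Bub1, Aurkb and Nuf2.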

How the data were processed

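RNA of the 8 samples was isolated in parallel, amplified in a double procedure, labelled with biotin and hybridised to an array per sample, per the labels' protocols. The deposited table holds a linear intensity (signal) for each of 45101 probe sets, made by the authors with MAS5 per the submitters' processing notes (version not given in the sources used here). Its arrays share the same 2% trimmed mean, so no scaling was added. Double amplification favours 3' ends of transcripts, and the scaling hides changes of total RNA per cell. Of the columns, 0 belonged to other samples.

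Signals were taken as log2(value + 5). Left out were 64 control probe sets and the dimmer probe sets, those with a mean log2 value at or below the median, which kept 22518. Models were fitted on all of these with limma 3.58.1 in R 4.3.3 (mouse as a fixed block, eBayes with an intensity trend, two-sided, Benjamini-Hochberg adjustment). A model had 1 coefficient for all expansions (3 residual degrees of freedom) or 1 per subclass (2 residual degrees of freedom). The samples are paired because the study design takes both from the same animal; their deviations from the group means correlated at 0.374, 0.0771, 0.214 and 0.338 in pairs 1 to 4. The number of arrays limits the precision. Scripts were tested on simulated data.

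Gene names came from the platform annotation, in which 34945 probe sets have 1 gene, 932 several and 9211 none; genes were named from single-gene probe sets only. Numbering in the labels is not uniform (expansions 3 and 4 are also called 4 and 5), so the subclass was read from each sample's own description. The members, the context lists and the tests were chosen with earlier results of these data known. Values on every array are given for the 2 members of each role group with the smallest unadjusted p (1 in a group of 3), and for Mki67, Top2a, Cdk1 and Bub1. Array values outside this rule were added after their values were seen. They include those of Mad2l1, Smc4, Plk1, Aurka, Pttg1, Bub1b, Ccnb2, Hmmr and E2f1, and signals of second probe sets. Up to 3 genes per context list are named by p. Alternatives covered the pseudocount, the filter, scaling, the variance trend, the pairing, purity, the choice of probe set and the omission of each pair.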

Additional observations from a re-analysis of the deposited data

Results flagged for a closer look

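A sample far from the others of its group, by a gap test over 4 values, was found in 9 of 138 sets of 4 values examined (6.52%), where chance flags about 1 in 20. In expansions these were Bub1 at 418 in expansion 4 (others 269 to 283), Kntc1 at 274 in expansion 1 (362 to 374), Ccna2 at 443 in expansion 4 (697 to 763), Ttk at 59.2 in expansion 3 (135 to 158), Ndc80 at 108 in expansion 3 (266 to 301) and Kif2c at 373 in expansion 3 (141 to 151). In polyclonal samples they were Nek2 at 243 in sample 4 (111 to 124) and Cdca2 at 44.5 in sample 4 (109 to 126). Among paired differences it was Melk, at 1.06 in pair 1 (0.39 to 0.44).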

How the results depend on the processing

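In all settings tried, 0 tested mitosis genes passed the adjusted threshold of limma, with and without the replicate block; the subclass difference could not be fitted without pair 1. Of 622 values of the 17 named genes under these settings, 600 kept their direction and 22 reversed, and all 22 lay in Cdca3, Ccna2, Cdc20, Cdk1, Ncaph and Incenp. The cause of these moves was not tested. The median difference was 0.29 without pair 3 and up to 0.68 with another pair left out, and over the alpha4-low pairs 0.09 without pair 3 and up to 0.53. The median of pair 2 was 0.63 with arrays centred. With each pair left out, 11 to 23 genes were higher in all remaining pairs (23 without pair 4). The second brightest probe set, for 25 genes, gave 0.81, -0.085, 0.22 and 0.13 in pairs 1 to 4, so the signs of pairs 2 and 4 turned, and 5 genes higher in every pair, against 4 of the same 25 with the brightest set. The alpha4-low median was 0.15 with second sets, 0.17 with the mean of probe sets and 0.18 without x_at and s_at sets.

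Over the alpha4-low pairs, the Cdca3 difference became 0.12 with quantile normalization, 0.089 with arrays centred, 0.14 with no replicate block, 0.13 as the mean of its probe sets and 0.33 in its second probe set. With sort purity as a covariate, the alpha4-low differences were -0.99 for Ccna2, -0.33 for Cdc20, -0.28 for Ncaph and -0.87 for Cdk1, and they were 0.24 for Nuf2 and 0.29 for Nusap1. Incenp was -0.31 in all and -0.55 in alpha4-low pairs both in its second probe set and, a setting chosen after seeing the data, without x_at and s_at probe sets, and -0.077 in alpha4-low pairs as the mean of probe sets. The second Ccna2 probe set gave -0.020 in all and -0.40 in alpha4-low pairs. With 1 pair left out, Cdca3 ranged from -0.075 to 0.60 in all pairs. Over the alpha4-low pairs the ranges were -0.32 to 0.34 for Cdca3, -0.014 to 1.33 for Ccna2, -0.13 to 1.22 for Cdc20 and -0.28 to 0.54 for Cdk1. For genes above background on all 8 arrays, also a setting chosen after seeing the data, the median was 0.58 in all and 0.42 in alpha4-low pairs. Genes near background, such as Plk1, Aurka and Kif20a, have no reliable direction.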

Other observations

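Regulators of mitotic and S phase transcription were read from a separate list of 22 genes, whose pair medians were 0.35, -0.06, -0.04 and 0.07. E2f1, an activator of S phase genes, read 141, 189, 178 and 301 in expansions 1 to 4 and 102, 122, 99.5 and 89.9 in the polyclonal samples. All expansions lay above all polyclonal samples, as for 1.05% of all genes. The E2f1 difference was largest in pair 4, at 1.69, where most mitosis genes were not higher. E2f8, an atypical member of the family that represses such genes, had a mean difference of 1.03. Neither passed an adjusted p of 0.05 in limma. At an unadjusted p under 0.05, 2 of the 20 tested regulators were higher, against 0.95% of probe sets and 126 of 10406 genes tested.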
